A study of Homo sapiens with 52 samples.

Results

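The 10 genes followed here encode feedback regulators of MAPK signalling, and they were measured by bulk mRNA sequencing of 3 breast cancer cell lines in which NRP1 had been depleted. The members were 4 dual-specificity phosphatases (DUSP1, DUSP4, DUSP5 and DUSP6), 5 Sprouty and SPRED proteins (SPRY1, SPRY2, SPRY4, SPRED1 and SPRED2) and the transcription factor ETV5. They were set by gene name, with earlier results of these data known, and all 10 of 10 were found among the 78894 genes of the deposited values. Samples numbered 52, in 18 groups. The lines were SUM159PT, MDA-MB-231 and HS578T. For transient knockdown, each line was transfected with an siRNA at 20 nM, either siNRP1 3, siNRP1 5 or the control siNT that targets no gene, and RNA was taken 72 hrs later. For stable knockdown, a lentivirus brought in shNRP1 3, shNRP1 5 or the matching control shNT, transduced cells were kept by puromycin, and RNA was taken 48 hrs after they had been seeded. Sequences numbered 3 were aimed at transmembrane NRP1 and those numbered 5 at transmembrane and soluble NRP1 together. The siRNA and the shRNA numbered 5 share a sequence, and those numbered 3 do not. Groups held 3 samples, with 2 exceptions, which were SUM159PT siNRP1 5 (no replicate 1) and HS578T shNRP1 3 (no replicate 3). The shRNA replicates were consecutive passages of the transduced cells, so that their spread may be partly technical. The 3 lines are established lines described as claudin-low.

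The RAS, RAF, MEK and ERK kinases relay signals from growth factor receptors at the membrane to transcription in the nucleus. Active ERK induces genes whose products switch the relay off again. DUSP proteins remove phosphates from MAP kinases, DUSP5 and DUSP6 with a preference for ERK, whereas Sprouty and SPRED proteins restrain the steps between the receptor and RAF. ETV5 is an ETS-family factor that is induced downstream of receptor signalling, and its level is often read together with those of DUSP6 and the Sprouty genes. NRP1 is a co-receptor for semaphorins and for growth factors of the VEGF family.

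Library depth ranged from 25310443 to 72003442 expected counts, and the members held between 18 (SPRY1) and 25106 (DUSP5) expected counts in a sample. NRP1 itself was lower in counts in all 12 comparisons of an NRP1-targeting sequence with its own control. In 11 of them the adjusted p was under 0.05, with log2 fold changes of -0.70 to -4.88. HS578T shNRP1 3, a group of 2 samples, had -1.59 and missed this threshold (edgeR, Benjamini-Hochberg adjusted p = 0.0690). Its samples were at 46.2 and 46.5 CPM of NRP1, below the 122 to 162 of shNT. In MDA-MB-231 siNRP1 3 the fall was in counts only (0.616-fold), and the 3 samples held 24.8, 29.5 and 31.3 TPM of NRP1 against 25.6, 29.3 and 31.6 in siNT. These are values of the whole gene. The paper reports repressed transmembrane NRP1 in all lines by RT-qPCR. It also reports that with sequences numbered 3 the soluble form was the leading NRP1 transcript. The part of this shift in the TPM values was not tested. Of the claudins that claudin-low cells lack, MDA-MB-231 samples held 62.6 to 226 TPM of CLDN4 and 10.4 to 61.5 of CLDN7. Medians of both were 1.02 TPM or less in the other lines. CLDN3 was at 2.87 to 13.4 TPM in MDA-MB-231, and CDH1, also lacking in such cells, had a median of 0.405. Of genes that such cells express, MDA-MB-231 medians were 13.0 TPM for ZEB1, 2496 for VIM, 7.415 for SNAI1 and 97.1 for ITGA6. The 3 HS578T siNRP1 5 libraries stood apart. Genes that were silent in HS578T controls and high in MDA-MB-231 controls (15 genes) were read there. Their median was 18.2, 17.4 and 9.55% of the MDA-MB-231 level in replicates 1, 2 and 3. Replicate 2 also held 7.03% of the SUM159PT level, as the median of 13 such genes. HS578T siNRP1 3 held 1.74 to 5.30% and HS578T siNT 0.542 to 1.14% by the first measure. MDA-MB-231 shNRP1 3 replicate 3 held 3.24% of SUM159PT and 3.35% of HS578T levels. In bulk RNA a share of other cells and a change of RNA per cell cannot be told apart, so the members called in siRNA comparisons within HS578T are also given with such reads subtracted. Subtracted in 3 ways, NRP1 in HS578T siNRP1 3 was at -1.22, -1.27 and -1.18 (-1.20 as deposited). The SE was 1.02, 1.00 and 0.242 (0.248 as deposited), and NRP1 passed only by the third way (adjusted p of 0.596, 0.560 and 0.0130). In HS578T siNRP1 5 it was at -4.21, -4.44 and -2.36 (-2.66 as deposited) and passed by each. The first 2 ways subtracted siNT profiles of the other lines, in which NRP1 was not targeted.

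Levels in the untargeted cells differed between the 3 lines, and HS578T was the lowest for 9 of the 10 members by mean TPM, which is scaled for transcript length. Over the 6 non-targeting samples of each line, DUSP6 was at 2.41 to 6.66 TPM in HS578T (median 4.49), at 14.6 to 58.1 in SUM159PT (median 22.9) and at 41.8 to 113 in MDA-MB-231 (median 68.9). The HS578T range lay wholly below the others, and the remaining pair of ranges overlapped. DUSP5 was at 5.84 to 15.4 TPM in HS578T (median 10.4), 20.7 to 49.7 in SUM159PT (median 23.8) and 38.3 to 196 in MDA-MB-231 (median 100). DUSP4 had a mean of 18.9 ± 5.16 TPM in HS578T, 52.6 ± 9.31 in SUM159PT and 67.1 ± 19.7 in MDA-MB-231 (SD, n = 6 each). DUSP1, an early responder to growth factors and stress, had means of 16.2 ± 3.81, 22.1 ± 9.02 and 48.4 ± 7.08 TPM in the same order.

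Among the inhibitors that act near the receptor, SPRY2 was the most abundant Sprouty transcript in each line, with 6.82 ± 1.62 TPM in HS578T, 20.8 ± 3.23 in SUM159PT and 32.9 ± 5.19 in MDA-MB-231 (SD, n = 6 each). SPRY1 was the scarcest member in HS578T, at 0.76 to 1.90 TPM. SPRED2 means were 8.88 ± 1.63, 20.3 ± 2.18 and 20.4 ± 2.27 TPM in HS578T, SUM159PT and MDA-MB-231. SPRED1 was the scarcest member in SUM159PT and MDA-MB-231, at 6.63 ± 1.80 and 6.77 ± 2.85 TPM, levels that differed by less than their spread. ETV5 went another way from the rest. It was the most abundant of the 10 members in HS578T, at 31.7 to 45.3 TPM, and the third most abundant in SUM159PT, at 21.8 to 36.7 TPM. Its order within MDA-MB-231, at 36.9 to 57.4 TPM, was the fifth.

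**Figure D1:**
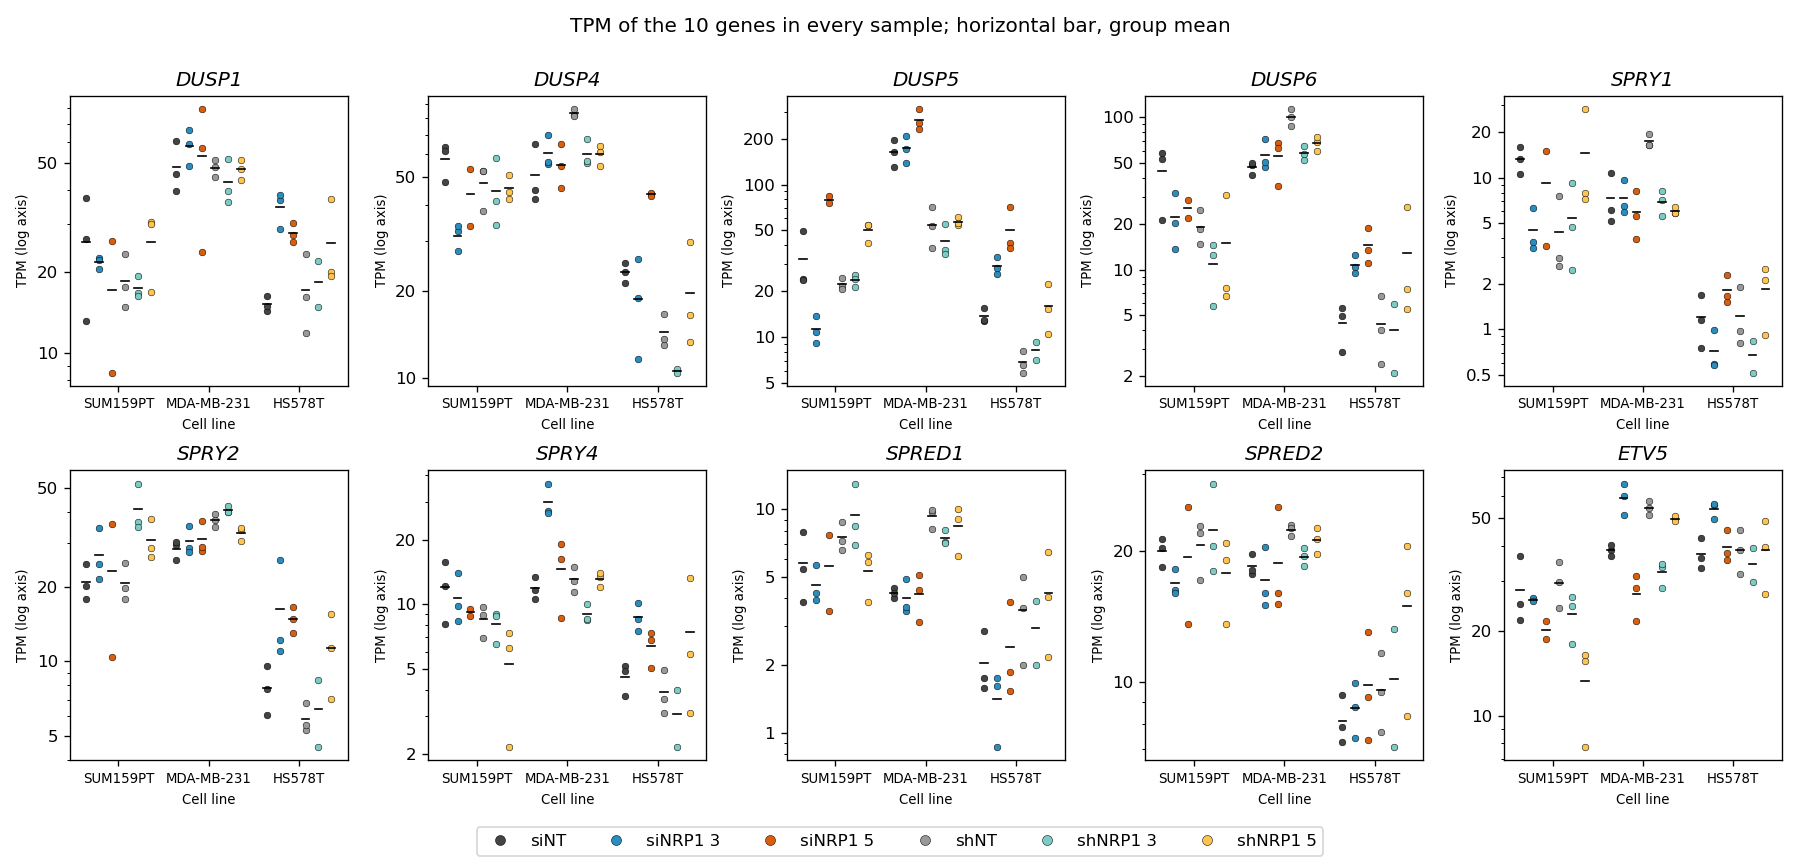
TPM of each member in each of the 52 samples, on a log axis, with 1 panel per gene and samples grouped by cell line and treatment. DUSP6 in HS578T non-targeting controls sits at 2.41 to 6.66 TPM, below every non-targeting control of the other lines, and DUSP5 in MDA-MB-231 is higher in the siRNA groups than in the shRNA groups.

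In a model of all 52 samples, HS578T controls differed from MDA-MB-231 controls in 10 of 10 members, where 70.2% of all genes tested differed (edgeR quasi-likelihood test, Benjamini-Hochberg adjusted p under 0.05, here called passing). Of these, 9 were lower, from DUSP6 with a log2 fold change of -3.21 ± 0.341 (SE, 0.108-fold) through DUSP5 (-2.50), SPRY1 (-2.30) and SPRY2 (-1.51) to SPRED2 (-0.60). ETV5 was higher by 0.41 in CPM (adjusted p = 0.0154), but not in TPM, where its difference was -0.28. TPM moved the median of all genes by -0.64 against CPM in this comparison, and ETV5 lay above that median on both scales while the other 9 lay below it. Without replicate 1 the ETV5 value was 0.29 (adjusted p = 0.228). HS578T differed from SUM159PT in 9 of 10 members against 63.5% of all genes. Lower were DUSP6 (-2.41), SPRY1 (-2.13), SPRY2 (-1.25), DUSP4 (-1.15), DUSP5 (-1.09), SPRED1 (-0.98), SPRY4 (-0.87) and SPRED2 (-0.52), and higher was ETV5 (0.68).

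Between SUM159PT and MDA-MB-231 controls 3 of 10 members passed, against 59.4% of all genes. DUSP1 (-0.75), DUSP5 (-1.41) and DUSP6 (-0.81) were lower in SUM159PT, all of them phosphatases. DUSP1 and DUSP6 did not pass without replicate 1 or without replicate 3 (log2 fold changes of -0.61 to -0.78 and -0.51 to -0.86, adjusted p of 0.0580 to 0.102 and 0.0787 to 0.146). DUSP5 passed in each of these fits.

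Over the 12 knockdown comparisons, 18 of 120 member tests passed (15.0%), with 11 higher and 7 lower, where 26500 of 234112 tests over all genes passed (11.3%). DUSP5 passed in 5 comparisons, ETV5 in 3, DUSP4, DUSP6, SPRY1 and SPRY2 in 2 each, DUSP1 and SPRY4 in 1 each, and SPRED1 and SPRED2 in none. Comparisons of siNRP1 3 and siNRP1 5 share their siNT samples, and those of the shRNAs their shNT samples.

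**Figure D2:**
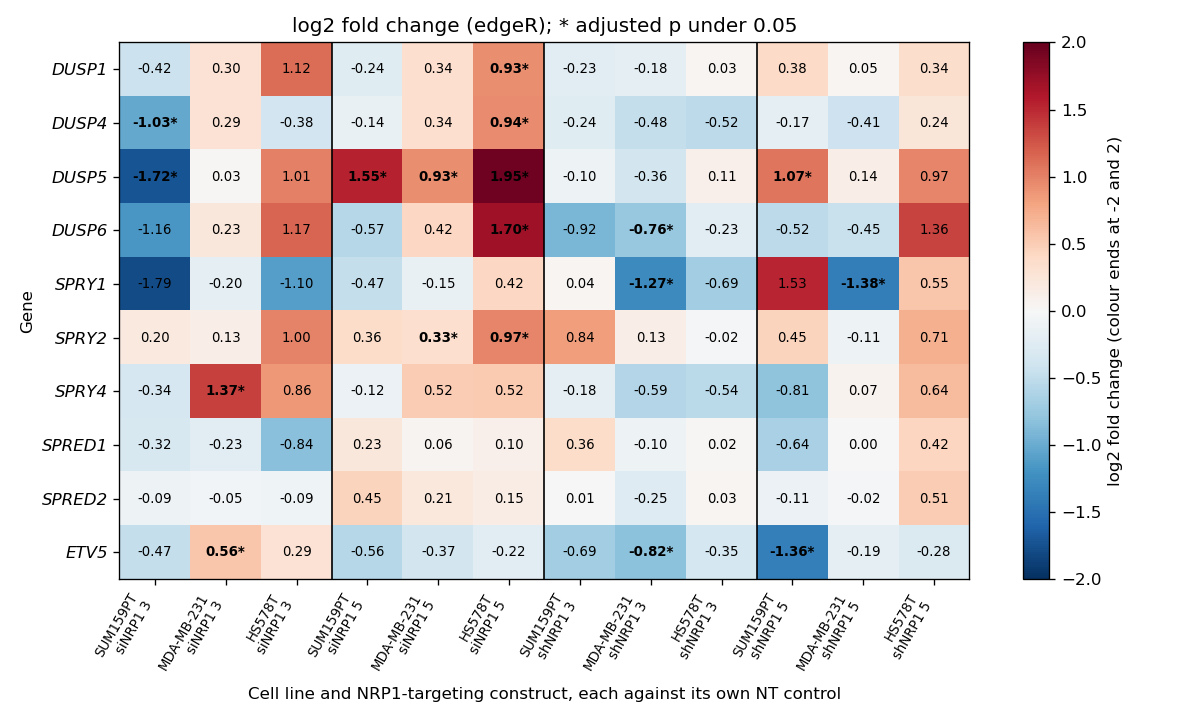
Log2 fold changes of the 10 members (rows) in the 12 knockdown comparisons (columns), with colour for the value and a star where the adjusted p was under 0.05. The stars number 18, of which DUSP5 holds 5 and SPRED1 and SPRED2 hold none.

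DUSP5, the nuclear phosphatase of ERK (chromosome 10, 110497907 to 110511533 of GRCh38, plus strand), rose with siNRP1 5 in each of the 3 lines. In SUM159PT it was at 75.6 and 83.6 TPM with siNRP1 5 against 23.9, 49.7 and 23.6 with siNT. Both treated samples lay above all controls, and the log2 fold change was 1.55 ± 0.319 (SE, 2.92-fold, adjusted p = 0.00465). DUSP5 was the 1 member of 10 to pass there, against 17.9% of all genes. When only these groups were fitted, the value was 1.52 with an adjusted p of 0.126, in a fit that passed 0.332% of all genes. In MDA-MB-231 the level was 254, 230 and 314 TPM with siNRP1 5 and 196, 164 and 130 with siNT. The groups did not overlap, and DUSP5 rose by 0.93 ± 0.214 (1.91-fold, adjusted p = 0.00294), one of 2 members of 10 that passed against 29.4% of all genes. In HS578T siNRP1 5 it was at 71.1, 41.1 and 38.3 TPM against 12.8, 12.9 and 15.4, again without overlap, with a log2 fold change of 1.95 ± 0.293 (3.86-fold, adjusted p = 0.000497). These HS578T libraries held the MDA-MB-231 reads described above, and after 3 ways of subtracting reads of other lines the value was 1.75, 1.85 and 0.94, the last of which did not pass.

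With siNRP1 3 DUSP5 moved otherwise. In SUM159PT it stood at 9.13, 10.8 and 13.8 TPM, below all siNT samples, and fell by 1.72 on the log2 scale (SE 0.298, 0.303-fold, adjusted p = 0.00254). In MDA-MB-231 the 171, 138 and 209 TPM of siNRP1 3 overlapped siNT, and in HS578T the level was 25.8, 28.3 and 33.6 TPM, above siNT, with a log2 fold change of 1.01 that did not pass (adjusted p = 0.0531). With shNRP1 5 DUSP5 was at 41.5, 53.9 and 54.7 TPM in SUM159PT, above the 24.4, 21.6 and 20.7 of shNT. It rose by 1.07 ± 0.293 there (2.09-fold, adjusted p = 0.0392), but did not pass without shNRP1 5 replicate 2 or 3 or without any single shNT sample (0.98 to 1.16, adjusted p of 0.0911 to 0.149). With shNRP1 5 in MDA-MB-231, 61.2, 53.9 and 56.1 TPM overlapped the 38.3, 71.4 and 53.8 of shNT. In HS578T shNRP1 5 it was at 10.4, 15.2 and 22.2 TPM against 8.06, 6.58 and 5.84, without overlap, and the 0.97 on the log2 scale did not pass (adjusted p = 0.109).

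**Figure D3:**
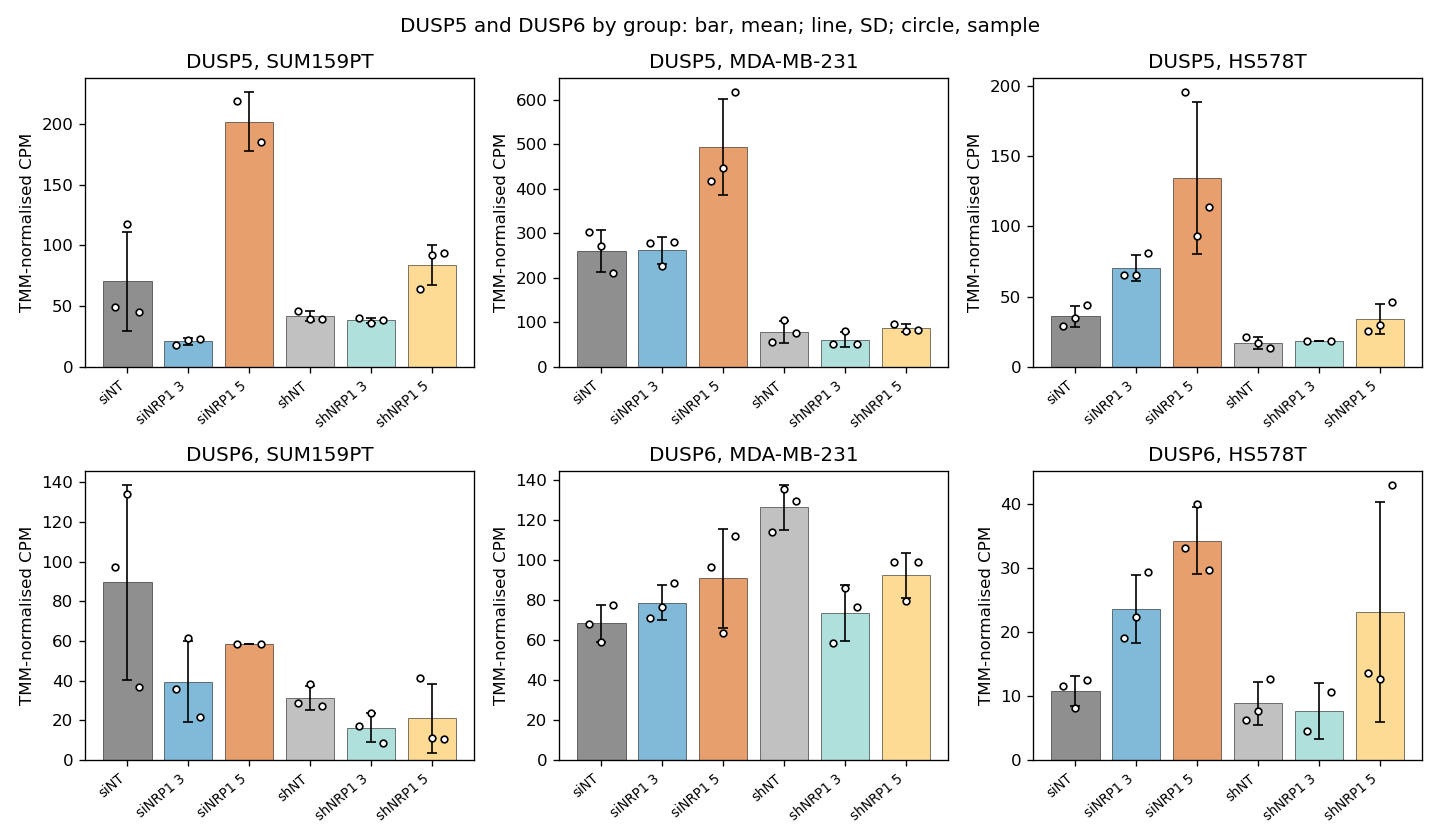
TMM-normalised CPM of DUSP5 and DUSP6 in the 18 groups, with bars for the group mean, lines for the SD and circles for the samples. DUSP5 is higher with siNRP1 5 than with siNT in each line, and the DUSP6 bars of HS578T are the lowest of the 3 lines in each treatment but shNRP1 5.

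HS578T siNRP1 5 was the comparison in which most members rose, with 5 of 10 passing against 18.7% of all genes and a median member log2 fold change of 0.73 against 0.03 over all genes. The 5 were the 4 phosphatases and SPRY2. DUSP1 was at 30.1, 25.8 and 27.3 TPM with siNRP1 5 and at 14.4, 15.0 and 16.3 with siNT (0.93 ± 0.313, 1.91-fold, adjusted p = 0.0471). DUSP4 was at 43.6, 44.0 and 42.8 TPM against 25.1, 21.4 and 23.4 (0.94 ± 0.273, 1.92-fold, adjusted p = 0.0244). In both genes every treated sample lay above every control. DUSP6, the cytoplasmic phosphatase of ERK, was at 13.5, 18.8 and 11.1 TPM against 5.62, 2.87 and 4.94 (1.70 ± 0.435, 3.24-fold, adjusted p = 0.0133). SPRY2 was at 14.9, 16.6 and 13.0 TPM against 7.69, 6.09 and 9.59 (0.97 ± 0.314, 1.96-fold, adjusted p = 0.0401). Neither of these overlapped its controls. The other 5 members had log2 fold changes of 0.10 (SPRED1), 0.15 (SPRED2), 0.42 (SPRY1), 0.52 (SPRY4) and -0.22 (ETV5), none of which passed.

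These rises rest on the libraries that held reads typical of MDA-MB-231, in which every one of these 5 genes is more abundant. With the reads of other lines subtracted in proportion to the controls of those lines, DUSP5 (1.75, adjusted p = 0.00636) and DUSP4 (1.10, adjusted p = 0.0172) still rose. DUSP1 (0.99, adjusted p = 0.0523), SPRY2 (0.99, adjusted p = 0.0545) and DUSP6 (1.33, adjusted p = 0.0611) did not pass. When the profile subtracted was that of the same treatment in the other line, DUSP5 was at 0.94 and did not pass (adjusted p = 0.578), with its replicate 2 then at 0 CPM, and DUSP4 was at 1.05 (adjusted p = 0.0295). Single libraries decided other calls. DUSP1 and DUSP4 did not pass without siNRP1 5 replicate 1 or 3 or without any single siNT sample (0.80 to 1.02 and 0.86 to 0.98, adjusted p of 0.0791 to 0.130 and 0.0591 to 0.0803). SPRY2 did not pass without any single siNRP1 5 sample or without siNT replicate 1 or 2 (0.84 to 1.03, adjusted p of 0.0700 to 0.148), nor DUSP6 without siNT replicate 2 (1.53, adjusted p = 0.0647), whereas DUSP5 passed in all 6 such fits.

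**Figure D4:**
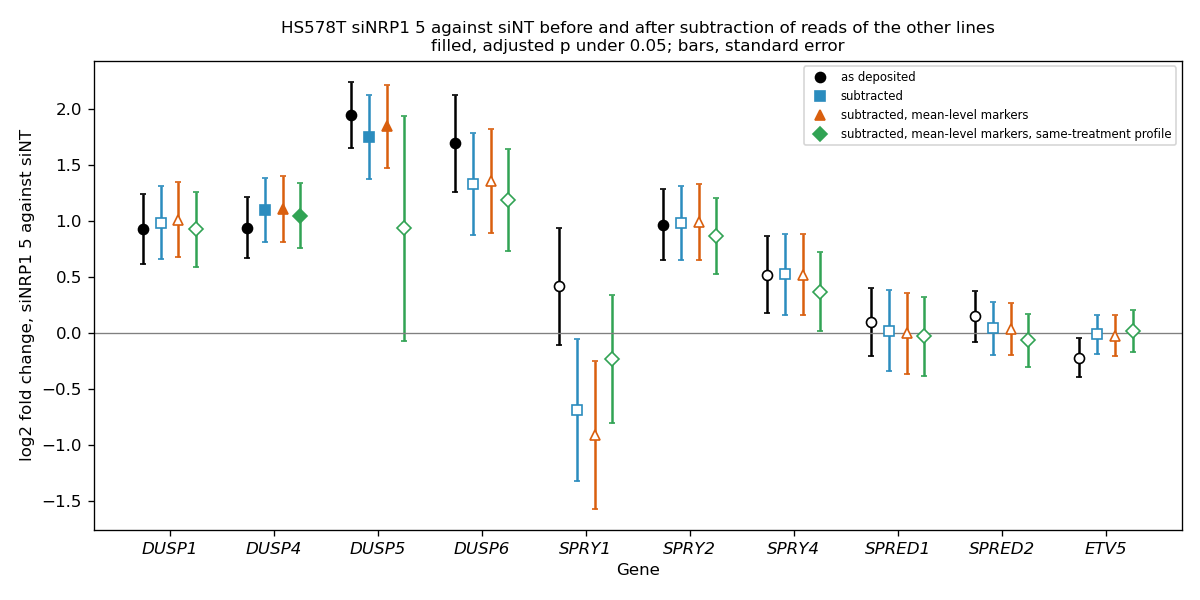
Log2 fold change of each member in HS578T siNRP1 5 against siNT, as deposited and after 3 ways of subtracting reads of the other cell lines, with lines for the SE. DUSP4 lies at 0.94 as deposited and at 1.05 to 1.11 after subtraction, whereas DUSP5 goes from 1.95 to 0.94 under the profile of the same treatment.

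Promoters are shown for DUSP1, DUSP6 and SPRY2. These genes passed in HS578T siNRP1 5 as deposited, but after none of the 3 subtractions of reads of other lines. They have an entry in the RefSeq promoter table (GRCh38.p14), which holds 7 of the 10 members. Each run covers 300 bases from 250 bases before the start of transcription, 5′ to 3′ on the minus strand of the genome, from which these genes are read, and holds part of the first exon at its end. Capitals mark, on either strand, the core of the cyclic AMP response element (TGACG) and an ETS site (CCGGAA).
DUSP1, chr5:172771146-172771445: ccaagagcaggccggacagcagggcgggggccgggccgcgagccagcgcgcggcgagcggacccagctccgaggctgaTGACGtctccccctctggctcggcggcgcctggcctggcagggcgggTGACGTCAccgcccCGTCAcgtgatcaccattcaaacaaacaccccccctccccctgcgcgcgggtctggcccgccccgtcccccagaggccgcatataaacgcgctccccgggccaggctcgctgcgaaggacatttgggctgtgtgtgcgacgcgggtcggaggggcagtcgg
DUSP6, chr12:89352452-89352751: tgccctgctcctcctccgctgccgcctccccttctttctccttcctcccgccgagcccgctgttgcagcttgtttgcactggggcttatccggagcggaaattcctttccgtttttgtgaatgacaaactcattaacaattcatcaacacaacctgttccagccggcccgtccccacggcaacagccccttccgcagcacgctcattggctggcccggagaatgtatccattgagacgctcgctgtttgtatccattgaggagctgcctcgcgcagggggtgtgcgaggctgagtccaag
SPRY2, chr13:80341077-80341376: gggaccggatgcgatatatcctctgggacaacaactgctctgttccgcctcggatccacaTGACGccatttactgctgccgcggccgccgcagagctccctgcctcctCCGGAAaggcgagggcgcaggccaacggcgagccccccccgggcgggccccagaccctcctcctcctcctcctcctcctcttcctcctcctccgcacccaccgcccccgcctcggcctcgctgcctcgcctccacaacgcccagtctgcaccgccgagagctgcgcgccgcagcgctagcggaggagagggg
The DUSP1 run holds the full element TGACGTCA, which 1.85% of 35116 promoters of this length hold, and 4 matches of the core, of which the full element gives 2 because it reads the same on both strands. SPRY2 holds 1 core match and 1 ETS site, against 24.6 and 17.2% of all promoters. The DUSP6 window held none of these, nor an AP-1 site (TGANTCA, 7.71% of all promoters) or a CArG box (1.29%), searched on both strands. None of the searched motifs was present in the windows of all 3 of DUSP1, DUSP6 and SPRY2.

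In HS578T siNRP1 3, 0 of 10 members passed against 4.65% of all genes, with 6 at an unadjusted p under 0.05 in edgeR and 3 called by DESeq2. Counts by unadjusted p and by DESeq2, here and below, stand without the share of all genes. DUSP1 came nearest, at 36.8, 28.8 and 38.2 TPM, above all siNT samples (1.12 ± 0.314, adjusted p = 0.0513). DUSP6 was at 9.47, 10.4 and 12.4 TPM, also above all siNT samples, with a log2 fold change of 1.17 (adjusted p = 0.135). DUSP4 stood at 11.7, 18.9 and 25.9 TPM and overlapped siNT. After the 3 subtractions DUSP1 was at 1.16 to 1.17, DUSP6 at 1.17 to 1.18 and DUSP5 at 0.97, and none of them passed. In HS578T shNRP1 3, 0 of 10 members passed against 0.0356% of all genes, with 0 at an unadjusted p under 0.05 in edgeR and 0 in DESeq2. In HS578T shNRP1 5, 0 of 10 passed against 0.946% of all genes, with 4 at an unadjusted p under 0.05 in edgeR and 2 in DESeq2. DUSP6 reached 5.47, 7.48 and 25.7 TPM there against 2.41, 4.04 and 6.66 in shNT, and the 1.36 on the log2 scale did not pass (adjusted p = 0.128). Same-numbered shRNA samples of HS578T deviated together (median correlation 0.590, against -0.442 for different numbers). The tests of these samples, here and elsewhere, did not pair them, apart from a replicate block shared with the siRNA samples. The shRNA groups of HS578T held at most 0.256% of MDA-MB-231 marker levels.

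In SUM159PT siNRP1 3, DUSP4 and DUSP5 were the 2 members of 10 that passed, both lower, against 8.66% of all genes. The median member was at -0.45 and the median gene at -0.01 on the log2 scale. DUSP4, a nuclear phosphatase of ERK, JNK and p38, was at 32.4, 27.6 and 33.8 TPM against 63.4, 61.5 and 48.0 with siNT. The groups did not overlap, and DUSP4 fell by 1.03 on the log2 scale (SE 0.218, 0.490-fold, adjusted p = 0.00803). DUSP6 stood at 20.3, 31.9 and 13.7 TPM against 52.9, 58.1 and 21.3, and SPRY1 at 3.75, 6.33 and 3.43 against 13.3, 15.9 and 10.6. The SPRY1 groups did not overlap, yet its log2 fold change of -1.79 ± 0.621 did not pass (adjusted p = 0.0833). DUSP4 and DUSP5 passed without each of the 6 samples in turn.

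In MDA-MB-231 siNRP1 3, SPRY4 and ETV5 were the 2 members of 10 that rose, against 25.7% of all genes. SPRY4 (chromosome 5, 142310427 to 142326455, minus strand), an inhibitor of receptor-driven RAS and RAF activation, was at 27.3, 26.6 and 36.6 TPM against 13.4, 10.6 and 11.6 with siNT. It rose by 1.37 ± 0.199 (2.59-fold, adjusted p = 6.27e-05). ETV5 (chromosome 3, 186046314 to 186110318, minus strand) was at 59.7, 51.5 and 66.3 TPM against 38.4, 36.9 and 40.1. Both genes lay above all their controls. The ETV5 rise of 0.56 ± 0.196 (1.48-fold, adjusted p = 0.0416) did not pass without any single siNRP1 3 sample or without siNT replicate 1 or 2 (0.51 to 0.62, adjusted p of 0.0637 to 0.129), whereas SPRY4 passed in all 6 such fits. In MDA-MB-231 siNRP1 5 the second member to rise beside DUSP5 was SPRY2, at 36.7, 27.8 and 29.0 TPM against 25.7, 29.5 and 30.4. Its TPM values overlapped while its CPM values did not, and the log2 fold change was 0.33 ± 0.115 (1.26-fold, adjusted p = 0.0347). It did not pass without siNRP1 5 replicate 1 or 2 or siNT replicate 1 (0.24 to 0.35, adjusted p of 0.0564 to 0.182), nor when only siNT and siNRP1 5 were fitted (0.33, adjusted p = 0.236).

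SPRY1, another inhibitor of receptor signalling (chromosome 4, 123396795 to 123403760, plus strand), fell with both shRNAs in MDA-MB-231. It was at 16.4, 16.4 and 19.5 TPM with shNT, at 5.58, 8.13 and 7.15 with shNRP1 3 and at 5.90, 5.83 and 6.42 with shNRP1 5. All 6 knockdown samples lay below all controls. The log2 fold changes were -1.27 ± 0.265 (0.415-fold, adjusted p = 0.00925) and -1.38 ± 0.264 (0.383-fold, adjusted p = 0.00144), both against the same shNT samples. SPRY1 was the 1 member of 10 that passed with shNRP1 5, where 20.7% of all genes did, and 1 of 3 members of 10 with shNRP1 3, where 3.65% did. Without shNRP1 3 replicate 1 its value there was -1.14 (adjusted p = 0.0551).

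The other 2 members that fell in MDA-MB-231 shNRP1 3 were DUSP6 and ETV5. DUSP6 was at 52.6, 64.2 and 57.0 TPM against 88.0, 113 and 101 with shNT (-0.76 ± 0.166, 0.589-fold, adjusted p = 0.0126). ETV5 was at 28.3, 33.7 and 34.4 TPM against 51.2, 54.1 and 57.4 (-0.82 ± 0.196, 0.568-fold, adjusted p = 0.0240). Neither gene overlapped its controls. The 2 calls were lost without shNRP1 3 replicate 1 or without shNT replicate 2 or 3, with DUSP6 at -0.65 to -0.74 (adjusted p of 0.0551 to 0.0761) and ETV5 at -0.65 to -0.79 (adjusted p of 0.0941 to 0.128). DUSP6, ETV5 and SPRY1 all passed without replicate 3, the library that held reads of the other lines. The median member was at -0.42, against 0.02 over all genes.

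In SUM159PT shNRP1 5, ETV5 was at 15.7, 7.73 and 16.4 TPM, below the 35.1, 29.6 and 24.0 of shNT. It fell by 1.36 on the log2 scale (SE 0.247, 0.389-fold, adjusted p = 0.00332) and passed without each of the 6 samples in turn. ETV5 and DUSP5, which rose, were the 2 members of 10 that passed, against 5.94% of all genes. SPRY1 was spread over 28.5, 7.95 and 7.23 TPM against 2.95, 7.59 and 2.64, and its log2 fold change of 1.53 ± 0.616 did not pass (adjusted p = 0.181). In SUM159PT shNRP1 3, 0 of 10 members passed against 1.40% of all genes, with 2 at an unadjusted p under 0.05 in edgeR and 0 in DESeq2.

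SPRED1 and SPRED2, which hold RAS away from RAF together with neurofibromin, passed in none of the 12 knockdown comparisons with edgeR. SPRED2 kept log2 fold changes of -0.25 to 0.51 and SPRED1 of -0.84 to 0.42. The SPRED1 extreme was HS578T siNRP1 3, at 0.86, 1.75 and 1.62 TPM against 2.84, 1.75 and 1.59 with siNT (SE 0.310, adjusted p = 0.135). The lowest siNRP1 3 sample and the highest siNT sample were both replicate 1, and the groups overlapped in TPM but not in CPM.

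Sequences 5 and 3 were also compared directly, a contrast in which the shared control cancels. DUSP5 was higher with siNRP1 5 than with siNRP1 3 in each of the 3 lines, by 3.27 ± 0.332 in SUM159PT (9.63-fold, adjusted p = 1.6e-05), 0.90 ± 0.214 in MDA-MB-231 (1.87-fold, adjusted p = 0.00254) and 0.94 ± 0.285 in HS578T (1.92-fold, adjusted p = 0.0316). The HS578T value did not pass without siNRP1 3 replicate 1 or 2 or siNRP1 5 replicate 1 (0.51 to 0.90, adjusted p of 0.0814 to 0.196), and with reads of other lines subtracted it was 0.78, 0.87 and -0.04 by the 3 ways (adjusted p of 0.110 to 0.988). In SUM159PT 2 of 10 members passed, against 29.7% of all genes, the other being DUSP4 (0.89, 1.85-fold, adjusted p = 0.0112), which did not pass without siNRP1 5 replicate 3 (0.71, adjusted p = 0.0878). In MDA-MB-231 3 of 10 passed against 39.0% of all genes, with SPRY4 (-0.86, 0.551-fold) and ETV5 (-0.93, 0.526-fold) lower with siNRP1 5. ETV5 stood at 28.2, 21.6 and 31.2 TPM with siNRP1 5, below every siNT sample in TPM but not in CPM (33.9 to 71.9 against 59.3 to 70.6), and its difference from siNT did not pass (-0.37, adjusted p = 0.174). SPRY4 stood at 16.2, 8.65 and 19.2. In HS578T 4 of 10 passed against 18.1% of all genes, with DUSP4 (1.32, 2.50-fold, adjusted p = 0.00487), DUSP5 and SPRED1 (0.94, adjusted p = 0.0442) higher and ETV5 (-0.51, adjusted p = 0.0498) lower. DUSP4 passed without each of the 6 samples and after all 3 subtractions. SPRED1 did not pass without siNRP1 3 replicate 1 or 3 or siNRP1 5 replicate 2 or 3 (0.73 to 0.87), nor ETV5 without any single sample (-0.47 to -0.54), and neither passed after any of the 3 subtractions.

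Between the shRNAs, 2 of 10 members passed in SUM159PT, against 8.71% of all genes. DUSP5 was higher with shNRP1 5 than with shNRP1 3 (1.16, 2.24-fold, adjusted p = 0.0193) and SPRED1 lower (-1.01, 0.497-fold, adjusted p = 0.0115). DUSP5 did not pass without any single shNRP1 3 sample or without shNRP1 5 replicate 2 or 3 (1.08 to 1.18, adjusted p of 0.0562 to 0.0718), and SPRED1 did not pass without shNRP1 3 replicate 1 or shNRP1 5 replicate 2 (-0.78 to -0.86, adjusted p of 0.0667 to 0.0830). In MDA-MB-231 2 of 10 passed against 14.2% of all genes. ETV5 (0.63, adjusted p = 0.0382) and SPRY4 (0.66, adjusted p = 0.0316) were higher with shNRP1 5, the opposite order to that of the siRNAs. The ETV5 call was lost without any single sample (0.47 to 0.72, adjusted p of 0.0551 to 0.177) and the SPRY4 call without any sample but shNRP1 5 replicate 1 (0.61 to 0.75, adjusted p of 0.0515 to 0.110). In HS578T 0 of 10 passed against 0.544% of all genes, with 4 at an unadjusted p under 0.05 in edgeR and 1 in DESeq2.

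The non-targeting controls of the 2 modalities differed in several members, and here delivery, selection and time of harvest cannot be told apart. In MDA-MB-231 5 of 10 members passed against 20.6% of all genes. DUSP5 was lower with shNT than with siNT, by -1.77 ± 0.218 (0.293-fold, adjusted p = 3.05e-05). Its samples in all shRNA groups of the line, at 35.0 to 71.4 TPM, lay below its samples in all siRNA groups, at 130 to 314 TPM. DUSP6 (0.84, 1.78-fold), SPRY1 (0.94, 1.92-fold), SPRED1 (0.56, 1.48-fold) and DUSP4 (0.53, 1.44-fold) were higher with shNT. DUSP5 and DUSP6 passed without each of the 6 samples. DUSP4 passed only without siNT replicate 3 (0.38 to 0.56 without the others, adjusted p of 0.0571 to 0.140). SPRY1 did not pass without shNT replicate 3 or siNT replicate 1 or 2 (0.71 to 0.89, adjusted p of 0.0564 to 0.0783), nor SPRED1 without shNT replicate 1 or 3 or siNT replicate 2 (0.48 to 0.52, adjusted p of 0.0579 to 0.0685).

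In HS578T 2 of 10 members passed between shNT and siNT, against 17.9% of all genes. DUSP5 was lower with shNT (-1.02 ± 0.288, 0.492-fold, adjusted p = 0.0221), and did not pass without shNT replicate 2 or 3 or siNT replicate 2 or 3 (-0.88 to -1.04, adjusted p of 0.0605 to 0.104). ETV5 had -0.52 in CPM (adjusted p = 0.0462) and 0.03 in TPM, and passed only without shNT replicate 1 (-0.39 to -0.61 without the others, adjusted p of 0.0520 to 0.160). Neither gene passed after any of the 3 subtractions. In SUM159PT 0 of 10 passed against 14.4% of all genes, with 5 at an unadjusted p under 0.05 in edgeR and 2 in DESeq2. SPRY1 came nearest, at 2.95, 7.59 and 2.64 TPM with shNT against 13.3, 15.9 and 10.6 with siNT (-1.86 ± 0.621, adjusted p = 0.0545).

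Because siNRP1 5 and shNRP1 5 share a sequence, the difference between their effects was tested in each line. The 2 forms left unlike levels of NRP1. Mean NRP1 TPM, as deposited, was 0.0318 of its control with siNRP1 5 and 0.444 with shNRP1 5 in MDA-MB-231. The values were 0.0377 and 0.205 in SUM159PT and 0.149 and 0.260 in HS578T. The part of the extent of knockdown in the differences below was not tested. In MDA-MB-231 3 of 10 members passed against 23.7% of all genes. DUSP4 (0.75 ± 0.231, adjusted p = 0.0242), DUSP6 (0.87 ± 0.235, adjusted p = 0.0115) and SPRY1 (1.23 ± 0.372, adjusted p = 0.0219) had a higher log2 fold change with the siRNA than with the shRNA. DUSP6 passed without each of the 12 samples, whereas DUSP4 and SPRY1 each lost the call without 5 of them. These were shNRP1 5 replicate 2, siNRP1 5 replicate 3 and siNT replicates 1 and 2 for both, with shNT replicate 2 for DUSP4 and shNT replicate 3 for SPRY1. The DUSP4 values were then 0.58 to 0.72 (adjusted p of 0.0556 to 0.0736), and those of SPRY1 were 0.92 to 1.18 (adjusted p of 0.0517 to 0.0650). In SUM159PT 0 of 10 passed against 2.51% of all genes, with 3 at an unadjusted p under 0.05 in edgeR and 0 in DESeq2, and in HS578T 0 of 10 against 0.854%, with 1 and 0. DUSP5, which rose with both forms in SUM159PT, was not shown to differ between them.

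Whether a sequence had the same effect in the 3 lines was tested in the model of all samples. For siNRP1 3, 2 of 10 members differed between lines (DUSP4 and DUSP5) against 3.42% of all genes. For siNRP1 5, 1 of 10 differed (DUSP6) against 18.2%, so that the rise of DUSP5 with siNRP1 5 was not shown to differ between lines. For shNRP1 5, 2 of 10 differed (SPRY1 and ETV5) against 3.81%. For shNRP1 3, 0 of 10 differed against 0.747%, with 0 at an unadjusted p under 0.05 in edgeR and 0 in DESeq2. Of these 5, DUSP5 had the widest span for siNRP1 3, with log2 fold changes of -1.72, 0.01 and 1.01 in SUM159PT, MDA-MB-231 and HS578T. ETV5 alone of these passed after all 3 subtractions, and none of them passed without each replicate number in turn.

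The members did not move as a block. Over the 18 group means of log2 CPM, with the mean of each line removed, the pairs most alike were SPRY4 and ETV5 (Pearson r = 0.757), DUSP4 and DUSP6 (0.698), DUSP1 and DUSP6 (0.677), DUSP6 and SPRY4 (0.675) and DUSP1 and SPRY4 (0.671). DUSP1 and SPRED1 were the least alike, at -0.611. These 18 points share controls, libraries and cell lines, and the values are a description. Among 14625 genes, the pattern of DUSP5 was most like those of NR2F6 (0.926) and MTHFD2 (0.918), that of SPRY4 like ARHGEF2 (0.900) and GPR3 (0.884), and that of ETV5 like NAB2 (0.879) and NRG2 (0.866). DUSP4 was nearest to CCDC69 (0.892) and CHST1 (0.875), DUSP1 to FUT1 (0.869) and LAT2 (0.863), and SPRY2 to LIPH (0.895) and USP53 (0.887). SPRED1 was nearest to TOPORS (0.872) and DPYD (0.855), SPRED2 to NSL1 (0.838) and ZNF681 (0.822), and SPRY1 to TSPAN14 (0.842) and PKDCC (0.789). DUSP6 was nearest to ENSG00000290924 (0.854) and ST3GAL1 (0.842).

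In isoform percent, the share of a gene's TPM that a transcript holds, 4 members were nearly of 1 transcript. Averaged over the groups, DUSP1-201 held 100% of DUSP1, DUSP5-201 99.3% of DUSP5, DUSP4-201 98.1% of DUSP4 and SPRY2-202 95.8% of SPRY2. SPRY4-202 held 90.0% of SPRY4, SPRED2-201 77.9% of SPRED2 and SPRED1-201 69.0% of SPRED1. DUSP6 was divided among DUSP6-201 (38.0%), DUSP6-204 (34.4%) and DUSP6-202 (23.3%), and SPRY1 between SPRY1-208 (47.2%) and SPRY1-206 (28.5%). ETV5-201 held 52.1% of ETV5.

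Other genes of the pathway were counted over the same 12 comparisons, with the HS578T values as deposited and no reads subtracted. Of 120 tests on the 10 paralogues of the members, 21 were higher and 12 lower (27.5% passed, against 11.3% over all genes). DUSP10, a phosphatase of JNK and p38, passed in 6 and rose with siNRP1 5 in SUM159PT (1.25), MDA-MB-231 (0.79) and HS578T (1.56) and with shNRP1 5 in SUM159PT (1.17). It also rose with siNRP1 3 (0.44) and fell with shNRP1 5 (-0.42) in MDA-MB-231, where DUSP5 did not pass. DUSP8, which acts on the same kinases, rose in 4, among them siNRP1 5 in MDA-MB-231 (1.70) and HS578T (1.90). DUSP9 passed in 4, rising with siNRP1 5 (3.08) and shNRP1 5 (2.10) and falling with shNRP1 3 (-2.26) in SUM159PT, and falling with shNRP1 3 in MDA-MB-231 (-1.62).

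Of 10 other genes induced by ERK, 8 tests of 120 were higher and 11 lower (15.8%, against 11.3% over all genes). LIF, a cytokine, fell with siNRP1 5 in SUM159PT (-3.42) and MDA-MB-231 (-0.76) and rose with siNRP1 3 in HS578T (1.38). HMGA2, a chromatin protein, fell with siNRP1 5 in the same lines (-2.39 and -1.14), where DUSP5 rose, and rose with shNRP1 5 in MDA-MB-231 (0.67). IER3 fell with siNRP1 3 in SUM159PT (-1.04), as DUSP5 did, and rose with siNRP1 3 (1.55) and siNRP1 5 (1.10) in HS578T. Of the 7 immediate early genes, which also answer to handling of the cells, 9 tests of 84 were higher and 3 lower (14.3%, against 11.3%). ATF3, a stress-induced factor, fell with siNRP1 3 in SUM159PT (-1.89) and rose in HS578T with siNRP1 3 (1.94), siNRP1 5 (2.23) and shNRP1 5 (1.22). IER2 fell with siNRP1 3 in SUM159PT (-1.63) and rose in MDA-MB-231 with siNRP1 5 (0.69) and shNRP1 5 (0.39), and JUN passed in 2. The part of handling in the member values was not tested. Of the kinase cascade itself, 10 tests of 204 were higher and 11 lower (10.3%, against 11.3%). NRAS rose with siNRP1 5 in SUM159PT (1.08), MDA-MB-231 (0.77) and HS578T (1.12), MAPK3, which encodes ERK1, fell with shNRP1 5 in SUM159PT (-0.93) and MDA-MB-231 (-0.66), and the scaffold KSR1 passed in 5 with 3 higher and 2 lower.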

How the data were processed

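Stranded poly(A) RNA of 52 samples was sequenced by the authors, who checked the reads with FastQC 0.11.9, trimmed them with Trim Galore 0.6.5, aligned them to GRCh38 with STAR 2.7.2b and quantified them with RSEM 1.3.3 (tools as in the submitters' processing notes). The deposited gene-level values were RSEM expected counts, not scaled for depth. The authors also deposited TPM, scaled for transcript length and library size, and isoform percent, the share of a gene's TPM that comes from a given transcript. Every value column was matched to a sample by its label, and 0 were left without one. Samples dropped by the authors as outliers (2) are not analysed here.

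Expected counts were rounded and fitted with edgeR 4.0.16 (R 4.3.3; filterByExpr, TMM, robust quasi-likelihood), with 6 group means per cell line, or 18 group means over all samples for comparisons between lines. The paper names no differential test, so this choice was made here. Adjusted p-values follow Benjamini and Hochberg across all genes tested, which numbered 20067 in SUM159PT, 18800 in MDA-MB-231, 19661 in HS578T and 23416 over all lines, and the threshold was 0.05. CPM are TMM-normalised. Sums of 25310443 to 72003442 expected counts per sample set the counting precision, and there were no molecular identifiers. Errors of levels are SD between samples. The SE of a log2 fold change is its absolute value divided by the square root of the quasi-likelihood F. It rests on a spread estimated over all groups of the fit, not on the compared replicates alone.

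Genes marked RNA of another line where they were at 0.5 CPM or less in every control of the line studied. In every control of that other line they were at 20 CPM or more. Here CPM were scaled by library total alone, without TMM. The share was the median over these genes of CPM in the sample divided by mean CPM in the other line's controls. This share times the other line's profile was subtracted from the counts in the alternatives. The choice of markers by mean level and of the profile of the same treatment was made after seeing the data. All 10 members are named in every comparison, and of each further list up to 3 genes with the most calls. For likeness, genes with a mean CPM of at least 1 were ranked by Pearson correlation over group means of log2 CPM (prior count 2). Members and lists were chosen with earlier results of these data known. Replicate numbers were taken to pair samples where every same-numbered pair correlated above 0.1 in its deviations from the group means. This held for the HS578T shRNA samples (7 of 7 pairs, 0.242 or more), where a replicate block, its numbers shared with the siRNA samples, left the count of members passing at 0. It was missed by 1 of 7 pairs in SUM159PT siRNA samples (median 0.370, against -0.205 for different numbers) and by 2 of 9 in MDA-MB-231 siRNA samples (0.306 against -0.176). On simulated counts for SUM159PT siNRP1 5 (19298 genes, 200 changed 4-fold), the test recovered 78% with 8 false calls, and on those for the effect of siNRP1 5 between lines (22622 genes) 83.5% with 6. The simulated samples had no pairing of replicates and no differences in reads of other lines. Recovery of changes smaller than 4-fold was not simulated. Alternatives were RLE normalization, no filter on low counts, a replicate block, DESeq2 1.42.0, fitting only the compared groups, TPM, leaving out each replicate, and leaving out or subtracting reads of other lines. Promoters came from RefSeq (GRCh38.p14), and figures were drawn with matplotlib 3.10.9 in Python 3.11.15.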

Additional observations from a re-analysis of the deposited data

Results flagged for a closer look

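In 5 cases the effect of an NRP1-targeting sequence on a member differed between the 3 cell lines by edgeR's test of the difference itself (2 degrees of freedom, Benjamini-Hochberg adjusted p over 23416 genes). Groups of 2 or 3 samples were too small to test for single outlying samples. The values below are log2 fold changes against the own control in SUM159PT, MDA-MB-231 and HS578T, in that order.

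DUSP5 differed with siNRP1 3 (-1.72, 0.01 and 1.01, adjusted p = 0.000112). It differed also after subtraction of reads of other lines (adjusted p = 0.00114 and 0.000754) but not with the profile of the same treatment (0.208), and the test was past the threshold without replicate 1 (0.0220) and replicate 3 (0.00333) and short of it without replicate 2 (0.0519). HS578T siNRP1 3, where DUSP5 was higher than in siNT, held 1.74 to 5.30% of MDA-MB-231 marker levels. DUSP4 differed with siNRP1 3 (-1.03, 0.27 and -0.38, adjusted p = 0.0432), with 0.0639, 0.0641 and 0.0483 after the 3 subtractions and 0.396, 0.640 and 0.00797 without replicates 1, 2 and 3.

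DUSP6 differed with siNRP1 5 (-0.58, 0.41 and 1.70, adjusted p = 0.0404). The HS578T value comes from the libraries with 9.55 to 18.2% of MDA-MB-231 marker levels, and after subtraction the adjusted p was 0.152, 0.149 and 0.165. Without replicates 1, 2 and 3 it was 0.129, 0.466 and 0.0201.

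With shNRP1 5, SPRY1 (1.50, -1.39 and 0.53, adjusted p = 0.0386) and ETV5 (-1.39, -0.20 and -0.27, adjusted p = 0.0173) differed between lines. SPRY1 in SUM159PT was spread over 28.5, 7.95 and 7.23 TPM. Its test gave an adjusted p of 0.0799, 0.0882 and 0.0583 after the subtractions and 0.467, 0.101 and 0.0833 without replicates 1, 2 and 3. ETV5 had 0.0299, 0.0299 and 0.0269 after the subtractions and 0.205, 0.400 and 0.0387 without the same replicates. DESeq2 gave adjusted p of 0.0136 for DUSP4, 1.63e-07 for DUSP5, 0.0191 for DUSP6, 0.0143 for SPRY1 and 0.00787 for ETV5. The part of reads of other lines in these differences was not tested beyond the subtraction.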

How the results depend on the processing

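Of 68 member results past the threshold, all 68 stayed past it with DESeq2 and with a replicate block, 66 with RLE normalization and 64 with no filter on low counts. The block gave each replicate number a common effect across siRNA and shRNA samples, and across lines in fits of all samples. Pairing within a modality was therefore not tested by it. The calls within HS578T and between lines were refitted with reads of other lines subtracted. Of these 38, of which 22 were of controls between lines, 27, 27 and 26 stayed by the 3 ways. Within HS578T, DUSP4 with siNRP1 5 stayed by all 3 ways, against siNT and against siNRP1 3. DUSP5 with siNRP1 5 against siNT stayed by the first 2, and no other HS578T call stayed. Of a different 38, all within lines, 33 stayed when only the compared groups were fitted. The calls that RLE ended were those of DUSP1 with siNRP1 5 and of ETV5 in shNT against siNT, both in HS578T.

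Counts of members called moved most with the filter and the choice of libraries, and the cause was not tested. The share of all genes passing in the same fits is not given beside these counts. A change in the members is therefore not told apart here from a change over all genes. With no filter on low counts, siRNA knockdown gave 5 in SUM159PT (3 as reported) and 9 in HS578T (5), shRNA knockdown 5 in SUM159PT (2), 2 in HS578T (0) and 8 in MDA-MB-231 (4), shNT against siNT 3 in SUM159PT (0), the siRNA against shRNA effect of sequence 5 gave 5 (3) and effects between lines 10 (5). DESeq2 gave 2 for shNT against siNT in SUM159PT, 5 for the siRNA against shRNA effect, 8 for siRNA and 2 for shRNA knockdown in HS578T, and 9 for effects between lines. Fitting only the compared groups gave 2 for shNT against siNT in SUM159PT, 8 for shRNA knockdown in MDA-MB-231 and 8 for siRNA knockdown in HS578T. The replicate block gave 2 for shNT against siNT in SUM159PT and 8 for siRNA knockdown in HS578T, where not every same-numbered pair deviated together. It ended no call and added 9, namely DUSP6 and SPRY1 for shNT against siNT in SUM159PT, DUSP6 with siNRP1 5 and with shNRP1 5 in MDA-MB-231, and in HS578T DUSP1, DUSP5 and SPRY2 with siNRP1 3, DUSP4 for shNT against siNT and SPRY1 for siNRP1 5 against siNRP1 3. RLE normalization gave 1 for shNT against siNT in HS578T (2).

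After the 3 subtractions, siRNA knockdown in HS578T gave 2, 2 and 1, shNT against siNT in HS578T 0, 0 and 0, and effects between lines 3, 3 and 3. Without HS578T siNRP1 5 in the fit the first 2 of these gave 1 and 1. DUSP5 with siNRP1 5 against siNRP1 3 in HS578T turned to -0.038 with the profile of the same treatment. In TPM, ETV5 was at 0.032 for HS578T shNT against siNT and at -0.28 for HS578T against MDA-MB-231 controls.

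Leaving out single replicates gave, for siRNA knockdown, 3 to 4 (SUM159PT), 2 to 7 (MDA-MB-231) and 1 to 7 (HS578T), and for shRNA knockdown 1 to 2, 1 to 4 and 0 to 0. In comparisons between lines a replicate number was left out of all groups at once, and some groups then held a single sample. For shNT against siNT within lines the ranges were 0 to 3, 2 to 5 and 0 to 2 in the same order. They were 10 to 15 for sequence 5 against sequence 3 (13), 1 to 4 for the siRNA against shRNA effect, 19 to 22 for controls between lines (22) and 0 to 6 for effects between lines.

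The effect of depth on member calls was not tested. SPRY1 had as few as 18 counts in a sample. With 2 or 3 samples a group, a p that misses the threshold does not show equal levels.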
